A study of Homo sapiens with 4 samples.

Results

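GATA2 peaks at core promoters were taken from the ChIP-seq peak lists of asynchronous and mitotic K562 cells as the peaks whose midpoint lay within 1 kb of the transcription start site (TSS) of any transcript of a GENCODE protein-coding gene on hg38. They numbered 3244 of 31777 asynchronous peaks (10.2%, exact 95% interval 9.88 to 10.5) and 167 of 1648 mitotic peaks (10.1%, 8.72 to 11.7). K562 is an established human leukaemia cell line with erythroid and megakaryocytic features, in which the antibody recovered the endogenous GATA2 protein. The asynchronous cells were an unsorted growing culture, and the mitotic cells had been arrested with nocodazole, stained for the mitotic epitope MPM-2 and sorted in several rounds whose pellets were combined. Both were fixed with disuccinimidyl glutarate and formaldehyde, and by the labels some asynchronous cells remained after the sort. Each condition had 1 GATA2 library from 1 cell line, so no difference between the conditions has a replicate check and no test between them was made. The lists give positions alone, with neither heights nor read counts, and depth is therefore unknown. Intervals in the text are 95% intervals over peaks or genes and cover counting error only. A peak was called bookmarked when it overlapped a peak in the other condition by at least 1 base, and a site without a mitotic peak may lie under the limit of detection.

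The core promoter is the stretch of DNA around a TSS where RNA polymerase II and the general transcription factors assemble. Many human promoters are CpG islands, rich in G and C and in binding sites for broadly expressed factors such as SP1 and NRF1, whereas promoters of lineage genes are more often CpG-poor. GATA2 is a zinc finger factor of haematopoietic stem and progenitor cells that recognises short A/T-rich strings with GATA at their centre and is known to act largely at enhancers. Mitotic bookmarking is the retention of a factor at some of its sites when chromosomes condense and transcription is largely silenced.

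Below are stretches of hg38 sequence under mitotic core promoter peaks, chosen to show the kinds of site found. They are written on the plus strand, and capitals mark GATA preceded by an A or a T and followed by an A or a G, on either strand, which is called a GATA string in the text. Stretches of NFE2, ZFPM1, CPOX, FTH1 and GYPB show lineage genes with GATA strings, and ZNF292 shows a GATA:E-box composite, whose E-box part is also in capitals. RPL10A and ZNF669 show sites shared with the asynchronous list that hold no GATA string, and SYVN1 and EVI5L show mitotic peaks without any asynchronous overlap.
NFE2, chr12:54295855-54295974: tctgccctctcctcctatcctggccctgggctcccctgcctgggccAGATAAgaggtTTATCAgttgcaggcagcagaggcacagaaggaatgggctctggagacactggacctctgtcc
ZFPM1, chr16:88454047-88454166: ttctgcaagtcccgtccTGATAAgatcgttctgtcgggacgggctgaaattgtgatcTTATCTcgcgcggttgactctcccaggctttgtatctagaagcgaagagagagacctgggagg
CPOX, chr3:98593674-98593793: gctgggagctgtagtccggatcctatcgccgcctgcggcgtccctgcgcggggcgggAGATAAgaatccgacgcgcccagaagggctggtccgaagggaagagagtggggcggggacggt
FTH1, chr11:61966715-61966834: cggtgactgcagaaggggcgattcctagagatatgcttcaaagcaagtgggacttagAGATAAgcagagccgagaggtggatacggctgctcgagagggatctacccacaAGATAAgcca
GYPB, chr4:144019381-144019500: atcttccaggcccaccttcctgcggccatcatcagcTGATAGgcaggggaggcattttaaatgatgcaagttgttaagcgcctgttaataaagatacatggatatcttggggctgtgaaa
ZNF292, chr6:87155443-87155562: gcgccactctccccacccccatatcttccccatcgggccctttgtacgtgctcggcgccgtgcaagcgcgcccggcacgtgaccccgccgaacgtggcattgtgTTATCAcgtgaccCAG
RPL10A, chr6:35468228-35468347: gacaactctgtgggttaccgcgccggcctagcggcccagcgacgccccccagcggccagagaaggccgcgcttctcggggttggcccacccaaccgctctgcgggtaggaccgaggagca
ZNF669, chr1:247104396-247104515: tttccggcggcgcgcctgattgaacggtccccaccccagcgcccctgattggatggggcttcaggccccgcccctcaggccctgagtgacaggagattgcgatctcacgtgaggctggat
SYVN1, chr11:65134923-65135042: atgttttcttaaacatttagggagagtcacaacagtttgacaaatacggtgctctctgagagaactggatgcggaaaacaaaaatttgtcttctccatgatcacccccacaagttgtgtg
EVI5L, chr19:7829915-7830034: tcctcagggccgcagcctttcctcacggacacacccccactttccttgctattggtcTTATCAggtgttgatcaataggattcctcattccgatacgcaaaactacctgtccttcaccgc

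The first question was whether GATA2 peaks at core promoters kept a mitotic peak as often as peaks elsewhere. At core promoters 159 of 3244 asynchronous peaks were bookmarked (4.90%, 4.18 to 5.70), beside 5.04% of all asynchronous peaks. Among distal peaks, over 3 kb from a TSS, the share was 1318 of 25266 (5.22%), and the difference, core promoter minus distal, was -0.32 percentage points (Newcombe interval -1.06 to 0.53). Core promoters and distal sites could thus not be told apart beyond counting error. Peaks at an intermediate distance, over 1 kb to 3 kb from a TSS, had the lowest share of the classes, at 123 of 3267 (3.76%), which was 1.14 percentage points under that of core promoters (0.146 to 2.13). Of the asynchronous peaks in the last 100 bp inside the 1 kb limit, 9 of 240 were bookmarked, and in the first 100 bp outside it 1 of 191 was, with median widths of 376.5 and 367 bp.

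The composition of the lists was likewise close. The mitotic share at core promoters minus the asynchronous one was -0.075 percentage points (-1.48 to 1.51). Within the core promoter window the midpoints were most numerous next to a TSS. Distance was taken to the nearest of all annotated starts, and no background positions were compared, so the counts alone do not show a preference. The 200 bp up to the TSS held 589 of the 3244 asynchronous midpoints (18.2%, 16.8 to 19.5) and 51 of the 167 mitotic midpoints (30.5%, 23.7 to 38.1). The asynchronous partners of the mitotic peaks did not show the higher value, with 30 of 159 midpoints (18.9%) in these 200 bp. Of the pairs of bookmarked peaks, the mitotic midpoint was nearer to a TSS than the asynchronous midpoint in 78 of 159 (49.1%, 41.1 to 57.1). The bookmarked share hardly varied with position, from 3.96% at 600 to 800 bp downstream of the TSS to 5.47% at 400 to 600 bp downstream, with 9 and 14 bookmarked peaks, and upstream and downstream midpoints differed by 0.15 percentage points (-1.37 to 1.63).

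A large part of these peaks lay near annotated start sites other than the canonical one. The annotated starts of all transcripts of protein-coding genes were counted, of whatever transcript type. Whether K562 cells use them was not tested. The TSS of the Ensembl canonical transcript was within 1 kb of 1563 asynchronous peaks (48.2%, 46.4 to 49.9) and 86 mitotic peaks (51.5%, 43.7 to 59.3), and the others were near the TSS of another transcript only. The midpoint of a mitotic peak fell upstream of the canonical transcript of its gene for 71 peaks, in an intron of it for 79 and in an exon for 17. Promoters were called CpG-rich when the 1000 bp centred on the nearest TSS had a GC content above 50% and a ratio of observed to expected CpG above 0.6, which held for 64.8% of all canonical protein-coding TSSs. Among asynchronous core promoter peaks near a canonical TSS 70.4% were at CpG-rich promoters, against 13.1% of those near another TSS only. Bookmarking did not differ detectably between these kinds of promoter. It reached 4.92% (65 of 1321) at CpG-rich and 4.89% (94 of 1923) at CpG-poor promoters, a difference of 0.032 percentage points (-1.45 to 1.60), and 5.31% near canonical against 4.52% near other start sites, a difference of 0.79 points (-0.70 to 2.31). At like width, without an interval, these differences were 0.89 and 1.27 points.

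Bookmarked core promoter peaks were wider than the others. The median width was 605 bp for the 159 bookmarked core promoter peaks (quartiles 482.5 and 746) and 353 bp for the 3085 asynchronous-only ones (256 and 490), which is 252 bp less. The other classes showed the same, with medians of 681.5 and 369 bp at distal sites and 696 and 364 bp in the intermediate class. In the narrowest width decile of the asynchronous list none of 343 core promoter peaks was bookmarked, which allows a share of up to 0.875% by the limit of 3 counts (exact upper limit 1.07%), and in the widest 63 of 302 were (20.9%, 16.4 to 25.9). Peaks that held a TSS were bookmarked more often than those that did not, at 6.92% (75 of 1084) against 3.89% (84 of 2160), a difference of 3.03 percentage points (1.40 to 4.85). They were also wider, with medians of 426 and 339 bp. With the peaks that held no TSS standardised to the width deciles of the others the difference was -0.13 points, so that no excess was left among peaks of like width.

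Narrow peaks were the place where core promoters and distal sites parted, a split made after the values had been seen. Among asynchronous peaks under the median width of 378 bp, 20 of 1703 were bookmarked at core promoters (1.17%, 0.72 to 1.81) and 39 of 12458 at distal sites (0.313%), a difference of 0.86 percentage points (0.43 to 1.5). The intermediate class was like the distal one, with 4 of 1683 (0.238%). At or above the median width the shares were 9.02% and 9.99%, and their difference of -0.97 points (-2.40 to 0.65) included 0. Among the narrow core promoter peaks the share was 1.73% (15 of 868) near a canonical TSS and 0.599% (5 of 835) near another TSS only, a difference of 1.13 points (0.084 to 2.28). Holding a GATA string did not separate them, with 15 of 1329 bookmarked against 5 of 374 without one, a difference of -0.21 points (-2.02 to 0.85). Peak strength is not in the lists, and its part in the split was not tested.

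Mitotic peaks at core promoters were narrow, with a median of 292 bp, and most lay within their asynchronous partner. The mitotic peak lay wholly inside it in 130 of 159 pairs (81.8%, 74.9 to 87.4), against 1210 of 1326 distal pairs (91.3%), a difference of -9.49 percentage points (-16.4 to -4.01). The median share of the asynchronous peak that it covered was 47.6%. In 14 core promoter pairs (8.81%) the mitotic peak was the wider of the pair, against 25 of 1326 distal pairs (1.89%), a difference of 6.92 points (3.32 to 12.4). Of these 14 pairs 11 were at CpG-rich promoters, 12 were within 1 kb of a canonical TSS, and 5 held no GATA string in either peak. Among all 159 bookmarked asynchronous core promoter peaks, 83 were within 1 kb of a canonical TSS and 13 held no GATA string. Counted over promoters, 11 of 65 CpG-rich pairs (16.9%) and 3 of 94 CpG-poor pairs (3.19%) had the wider mitotic peak, a difference of 13.7 points (4.50 to 24.8). These counts were made after the values had been seen.

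These pairs included RPL10A, ZNF669, ZNF789, ITSN1 with CRYZL1, LYL1 and TUSC3 among the genes named by the rule for named genes. At RPL10A, which encodes a protein of the large ribosomal subunit, the asynchronous peak of 219 bp lay wholly inside a mitotic peak of 532 bp whose midpoint was 113 bp upstream of the TSS. ZNF669 had an asynchronous peak of 294 bp wholly inside a mitotic peak of 453 bp. ZNF789 had peaks of 231 and 572 bp. The shared promoter of ITSN1, an endocytic scaffold, and CRYZL1 had peaks of 494 and 597 bp. LYL1, a helix-loop-helix factor of blood progenitors related to TAL1, had peaks of 427 and 510 bp with 2 GATA strings in each. TUSC3 had peaks of 518 and 614 bp.

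The next question was what sequence the core promoter peaks held. A GATA string was found in 2749 of 3244 asynchronous core promoter peaks (84.7%, 83.5 to 86.0), in 93.0% of the intermediate class and in 94.0% of distal peaks. The difference, core promoter minus distal, was -9.29 percentage points (-10.6 to -8.06), and with distal peaks standardised to the same widths it was -9.05. Windows of the same length placed 5 kb to either side held a GATA string in 47.8% of cases around core promoter peaks and in 53.5% around distal peaks, less often than the peaks themselves in both classes. A pair or more of GATA strings was present in 50.0% of core promoter and 68.8% of distal peaks. The share was lower at CpG-rich promoters, where 76.2% of peaks held a string, than at CpG-poor ones, where 90.6% did, a difference of -14.4 points (-17.03 to -11.7). In the bins nearest the TSS the share was 78.6% just upstream and 82.0% just downstream, with median GC contents of 52.4% and 52.2%, and it was 89.6% at 800 to 1000 bp upstream, where the median GC content was 45.8%.

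The other strings searched were matched on both strands in the reference sequence of each peak. The composite was CTG with GATAA after a gap of 8 bases, the site of complexes of GATA and TAL1 factors, which overlaps the GATA strings, and the E-box was CAGCTG. The others were RUNX (AACCACA), ETS (GGAAG preceded by an A or a C and followed by a C or a T), AP-1 (TGANTCA), the cyclic AMP response element CRE (TGACGTCA), CCAAT, the GC box (GGGCGG, bound by SP and KLF factors), the CACC box (CCACCC, bound by KLF1 among others), NRF1 (GCGCATGC), YY1 (AANATGGC) and the TATA box (TATAAA). GC boxes were in 23.7% of asynchronous core promoter peaks and 6.77% of distal ones, a difference of 16.96 percentage points (15.5 to 18.5). CACC boxes followed with 33.0% against 25.9%. NRF1 strings were rare in both, at 1.26% and 0.380%. CRE strings were in 0.524% and 0.245%, a difference of 0.28 points (0.070 to 0.597). Other strings were scarcer at core promoters, with RUNX at 10.5% against 14.1%, AP-1 at 15.1% against 19.3% and the composite at 6.38% against 8.94%. TATAAA, which is A/T-rich, was in 16.2% of core promoter and 23.2% of distal peaks. E-box and ETS shares differed by 0.17 (-1.36 to 1.77) and -0.13 points (-1.73 to 1.53). The mitotic list showed the GC box difference at 18.6 points (12.6 to 25.7) and the GATA difference at -8.87 points (-14.8 to -4.52).

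Bookmarked core promoter peaks held a GATA string more often than asynchronous-only ones, at 91.8% (146 of 159) against 84.4% (2603 of 3085), a difference of 7.45 percentage points (2.00 to 11.0). Distal peaks differed likewise, at 98.8% against 93.8% (5.01 points, 4.21 to 5.57). In a fixed window of 200 bp around the midpoint the core promoter difference was 4.06 points (-3.11 to 9.93). With canonical TSSs only it was 8.57 points (-0.60 to 14.7), and both intervals included 0. Among asynchronous-only peaks standardised to the widths of the bookmarked ones the share was 92.4% and the difference -0.60 points, so that no excess was left at like width. A pair or more of GATA strings was in 73.0% against 48.8%, with a difference of 24.1 points before and 3.38 points after standardising. The E-box, ETS and composite strings kept a larger part of their difference than these, a choice of strings made after the values were seen. The E-box was in 39.6% of bookmarked and 23.4% of asynchronous-only peaks, and in 31.05% of the latter at like width. ETS strings were in 40.3% and 26.5%, or 33.9% at like width, and the composite in 11.9% and 6.09%, or 7.35% at like width. GC boxes were in 30.8% and 23.4%, or 29.99% at like width, and the differences of the CACC and TATA boxes fell from 14.9 and 8.74 points to 0.099 and 0.41. Those of RUNX, AP-1, CCAAT and YY1 were 2.21, 4.59, 7.44 and 2.84 points before and -3.00, -2.92, -6.40 and -1.48 points after standardising. The standardised values have no interval. All these shares are over the whole asynchronous peak. The mitotic core promoter peaks, which were narrower, held an E-box in 23.4%, an ETS string in 27.5% and a composite in 10.8%. Distal mitotic peaks held them in 23.8%, 27.7% and 13.3%. Of the core promoter peaks without a GATA string, 13 of 495 were bookmarked (2.63%, 1.41 to 4.45), against 16 of 1507 such distal peaks (1.06%), a difference of 1.56 points (0.297 to 3.42).

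Mitotic peaks without any GATA string were likewise commoner at core promoters. They made up 21 of 167 there (12.6%, 7.96 to 18.6), 1 of 131 in the intermediate class (0.763%) and 50 of 1350 at distal sites (3.70%). Median widths of the mitotic peaks were 292, 312 and 296 bp, and median GC contents 52.2%, 44.9% and 44.8%. Which of these features the missing strings follow was not tested.

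Mitotic peaks without any asynchronous overlap were rare, and made up a larger share at core promoters than at distal sites. The authors described the 42 such peaks of the whole list as low in read coverage and not at genes with known haematopoietic roles. They did not analyse these peaks further. At core promoters such peaks numbered 12 of 167 (7.19%), beside 2.55% of all mitotic peaks and 27 of 1350 at distal sites (2.00%). The difference, core promoter minus distal, was 5.19 percentage points (2.03 to 10.2). The midpoints of those at core promoters lay in the 200 bp up to the TSS in 6 of 12, and 6 of 12 held a GATA string, against 140 of 155 shared mitotic peaks (90.3%). The 12 were also narrower than the shared ones, with median widths of 239.5 and 292 bp. Their median GC content was 54.4% against 51.9%. Narrow width and few GATA strings were not particular to core promoters. The 27 such distal peaks had a median width of 169 bp against 300 bp for shared ones, and a median of 0 GATA strings against 2. The peak of 410 bp at HIKESHI, a nuclear import carrier of heat shock protein, and that of 307 bp at SYVN1, an E3 ligase that removes misfolded proteins from the endoplasmic reticulum, held no GATA string. Those at LNPK, RSRC1, ANGPT1 and JRK held none either. EVI5L, FAM124B, RFESD, MCCC2 and PTPRZ1 held 1 GATA string each. The PTPRZ1 peak lay in intron 29 of the canonical transcript, near an annotated alternative start site, and the ANGPT1 peak in exon 4 of its own. Of the 12 genes 6 had an asynchronous peak elsewhere in a core promoter window of their own, and the other 6, SYVN1, HIKESHI, EVI5L, MCCC2, PTPRZ1 and JRK, had none.

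Counted by gene, 2989 of 20046 protein-coding genes (14.9%) had an asynchronous core promoter peak and 176 (0.878%) a mitotic one, and 170 genes had both. Of the former, 2531 had 1 peak and 383 had 2. Of the latter 2 genes, QPRT, an enzyme of NAD synthesis, and FAM83A, had 2 mitotic peaks. 1 of the QPRT peaks was counted for SPN as well. It lay in intron 1 of SPN, 340 bp from the canonical TSS of that gene, and 15593 bp upstream of the canonical TSS of QPRT. The sequence from 250 bp before to 50 bp after the canonical TSS held a GATA string in 18.4% of all genes, 19.1% (17.7 to 20.6) of those with an asynchronous and 26.1% (19.8 to 33.3) of those with a mitotic core promoter peak. This fixed window thus told genes with an asynchronous peak little apart from the rest, while the interval of those with a mitotic peak lay above the 18.4%. A canonical TSS was within 1 kb of only 48.2% of asynchronous core promoter peaks, so many of the peaks lay outside the window.

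Gene lists of the lineage and of general cell functions were then compared with these backgrounds. Erythroid lists had many asynchronous core promoter peaks, with 20 of 25 genes of the red cell membrane (80.0%, 59.3 to 93.2), 17 of 23 of heme synthesis and iron (73.9%, 51.6 to 89.8) and 16 of 29 haematopoietic transcription factors (55.2%, 35.7 to 73.6). Globins had 4 of 10 (40.0%, 12.2 to 73.8) and megakaryocyte and platelet genes 6 of 23 (26.1%, 10.2 to 48.4), with intervals that included the 14.9% of all genes. Replication-dependent histone genes had 18 of 69 (26.1%, 16.3 to 38.1), with an interval above the 14.9%. Neighbouring genes can share 1 peak, which the intervals over genes do not take into account. Proteasome genes (9 of 39), genes of mitochondrial complex I (7 of 37) and AP-1 and immediate early genes (4 of 25) had intervals that included the 14.9%. The same held for cell division genes (5 of 41), cytosolic ribosomal protein genes (9 of 80) and numbered zinc fingers (64 of 476). Olfactory receptors were below the 14.9%, at 10 of 400 (2.50%, 1.21 to 4.55). Copies that are nearly identical, such as the histone, glycophorin, RH and paired globin genes, are uncertain, since reads were kept only where they mapped to 1 place.

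Mitotic core promoter peaks were few in every list. Haematopoietic transcription factors had the highest share, 4 of 29 (13.8%, 3.89 to 31.7) against the 0.878% of all genes. Heme synthesis and iron and megakaryocyte genes followed with 2 of 23 each (8.70%, 1.07 to 28.04), the latter being ANGPT1 and GP1BB. The ANGPT1 peak overlapped no asynchronous peak, held no GATA string and lay 175990 bp downstream of the canonical TSS. The red cell membrane list, which led the asynchronous lists, had 1 of 25 (4.00%, 0.101 to 20.4). Proteasome genes and ribosomal protein genes had 1 each, PSMA1 and RPL10A, and numbered zinc fingers 6 of 476 (1.26%, 0.464 to 2.72). No gene had one among 10 globins, 25 AP-1 and immediate early genes, 41 cell division genes, 69 histone genes, 37 complex I genes and 400 olfactory receptors, which by the limit of 3 counts allows shares of up to 30%, 12%, 7.32%, 4.35%, 8.11% and 0.750%. The exact upper limits are 30.8%, 13.7%, 8.60%, 5.21%, 9.49% and 0.918%.

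The transcription factors with a mitotic core promoter peak included LYL1, NFE2 and ZFPM1. NFE2, a leucine zipper factor of erythroid and megakaryocytic cells, had a mitotic peak of 353 bp inside an asynchronous peak of 677 bp, both with 3 GATA strings. It lay in intron 1 of the canonical transcript, with its midpoint 169 bp upstream of an internal start site, and the pair of GATA strings printed above began 146 and 157 bp upstream of that site. ZFPM1 encodes FOG1, the cofactor that GATA1 and GATA2 bind. Its mitotic peak of 577 bp in intron 1 covered 75.7% of an asynchronous peak of 762 bp, again with 3 GATA strings in each. At LYL1 the mitotic midpoint fell in exon 1 of the canonical transcript, 12 bp upstream of another TSS.

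In the heme and iron list, CPOX, an enzyme of heme synthesis in the mitochondrion, had a mitotic peak of 246 bp whose midpoint was 84 bp upstream of the nearest TSS and which held 2 GATA strings. The string printed above began 88 bp upstream of that TSS, in a GC-rich promoter with a mitotic peak GC content of 66.3%. FTH1, the heavy chain of ferritin, had a mitotic peak of 322 bp within an asynchronous peak of 705 bp, in intron 1 and with all 3 GATA strings of the wider peak inside the narrower. GYPB, a glycophorin of the red cell surface, had peaks of 258 and 376 bp with 2 GATA strings in each, and a string that began 42 bp upstream of the TSS. It belongs to the nearly identical copies for which placement is uncertain. GP1BB, a subunit of the platelet receptor for von Willebrand factor, had its mitotic midpoint 1 bp from the TSS, in a peak of 402 bp with 1 GATA string. PSMA1, a subunit of the proteasome core, had a mitotic peak of 521 bp that covered 79.7% of the asynchronous one and held 3 GATA strings.

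The numbered zinc fingers with a mitotic peak were ZNF292, ZNF322, ZNF669, ZNF670, ZNF789 and ZNF81, a family of mostly transcriptional repressors. Their mitotic midpoints were all upstream of the nearest TSS, between 79 bp (ZNF670) and 587 bp (ZNF81) from it. ZNF669 and ZNF670 held no GATA string in either peak. ZNF292 held 1, which began 18 bp upstream of the TSS and was part of a composite. Composites were also in the mitotic peaks at DNAJB2, a co-chaperone, and in the peak counted for both QPRT and SPN.

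The widest mitotic core promoter peaks included those at TUSC3 (614 bp with 6 GATA strings), ITSN1 and CRYZL1, ZFPM1, MARCHF2 (576 bp), ZNF789, LYZL6 (538 bp with 5 GATA strings), RPL10A and STK11 (530 bp). TUSC3 works in protein N-glycosylation, MARCHF2 is a membrane ubiquitin ligase and STK11 is the kinase LKB1. The peaks nearest to a TSS, by midpoint, were at RUNX1T1 (0 bp), GP1BB and MTRFR (1 bp), ACSL6 (2 bp), DNAJB2 (3 bp), STX3 (4 bp), TCP11L2 (6 bp), FAM83A (8 bp), KLC2 (9 bp) and EPB41L1 (12 bp, as at LYL1). RUNX1T1 is a corepressor known from the fusion with RUNX1 in leukaemia, and its mitotic peak of 211 bp with 1 GATA string covered 23.7% of an asynchronous peak of 891 bp with 4. ACSL6 activates fatty acids, and its peak of 176 bp, in intron 1 of the canonical transcript, covered 30.9% of the asynchronous one. At 6 of these 10 peaks, ACSL6, EPB41L1, FAM83A, RUNX1T1, STX3 and TCP11L2, the promoter was CpG-poor, as it was at 97 of all 167 mitotic core promoter peaks.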

How the data were processed

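Alignment to hg38 was done by the authors with BWA (0.7.12). They kept uniquely mapped reads, called peaks with MACS2 (2.1.0) and Genrich (0.6.1) and removed blacklisted regions. How the calls were combined is not given in the sources used here. The values the authors deposited are genomic positions in bp in 3 columns, without score or depth. The 2 input libraries were not used here.

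TSSs came from GENCODE release 44. Classes were core promoter (within 1 kb), intermediate (over 1 kb to 3 kb) and distal. Sequence was read from hg38 and coordinates are printed from 1. Shares have exact binomial and differences Newcombe intervals at 95%. For standardised values, shares were weighted over 10 width groups (or 5 GC content groups) of the first-named class. The genes named had a mitotic core promoter peak that overlapped no asynchronous one, was among the 10 widest or the 10 nearest to a TSS, was 1 of at least 2 of its gene, or belonged to 1 of 13 gene lists. Some of them are not reported here by name. The members and lists were chosen with earlier results of these data known. Alternatives changed the overlap rule, TSS set, distance, width and search window. The steps were tested on simulated data. The software was matplotlib 3.10.9, pysam 0.24.0, pandas 2.3.3, numpy 2.4.6 and scipy 1.17.1 under Python 3.11.15.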

Additional observations from a re-analysis of the deposited data

How the results depend on the processing

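No paired analysis was possible because each condition has 1 GATA2 library, and no depth, height or read count limits or ranks a peak beyond its being listed. The bookmarked share of core promoter peaks moved from 4.90% to 2.25% with a reciprocal overlap of at least 50%, to 9.02% among peaks at or above the median width and, in a split added after seeing the data, to 1.17% under it. The difference from distal peaks stayed inside its main interval under the other overlap rules, TSS sets, distances and width settings, and was 0.86 percentage points in that added split. With canonical TSSs only, 94 genes in place of 176 had a mitotic core promoter peak, and within 200 bp 73 had one. The share of mitotic peaks at core promoters was then 5.22% and 4.37%, and within 500 bp 6.74%. The GATA string difference between core promoter and distal peaks kept its sign, at -11.5 points in 200 bp around the midpoint, -15.3 with canonical TSSs only and -6.19 when standardised to GC content. The GATA string difference between bookmarked and asynchronous-only core promoter peaks turned to -0.60 points when standardised to width, and its interval included 0 in the 200 bp window (4.06 points) and with canonical TSSs only (8.57 points). With reciprocal overlap the difference in their median width was 145 bp in place of 252 bp.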
